A study of Mus musculus with 23 samples.

Results

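The genes of the colony-stimulating factors and of IL-2, together with the receptors of these ligands, were followed in bone marrow-derived macrophages (BMDM) before and after LPS. The 10 genes are the ligands *Csf1*, *Csf2*, *Csf3* and *Il2* and the receptor chains *Csf1r*, *Csf2ra*, *Csf2rb*, *Csf3r*, *Il2ra* and *Il2rg*. They were chosen by name, and every array probe whose accession maps to any of them was read, which gave 15 of the 55,681 probes. With 1 probe per gene they make up 10 of the 26,014 genes in the fit. The cells were grown from bone marrow of male C57BL/6 mice of 10 to 14 weeks that were wt, lacked the kinase MK2 (MK2-/-) or lacked both MK2 and the related kinase MK3 (MK2/3-/-). In all groups the bone marrow cells were differentiated for 9 days with 10 ng/ml M-CSF, the product of *Csf1*, which according to the methods of the study was left out of the medium shortly before the experiment. LPS, a bacterial cell wall component sensed by TLR4, was then added at 100 ng/ml for 120 min, or the BMDM stayed in medium alone. Each group held 4 arrays, apart from MK2-/- BMDM in medium, of which there were 3, and the third MK2-/- medium array belongs to the fourth MK2-/- culture. The experiments are described as independent, and the other medium and LPS arrays of the same genotype and replicate number share a culture.

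M-CSF (encoded by *Csf1*) acts through the receptor tyrosine kinase CSF1R and is required for the survival and differentiation of macrophages. GM-CSF (*Csf2*) signals through a specific alpha chain (*Csf2ra*) and the common beta chain (*Csf2rb*), whereas G-CSF (*Csf3*), the main growth factor of neutrophils, binds a receptor encoded by *Csf3r*. IL-2 is best known as a growth factor of T cells. Its high-affinity receptor consists of *Il2ra*, a beta chain (*Il2rb*) and the common gamma chain (*Il2rg*), which is shared with receptors of IL-4, IL-7, IL-9, IL-15 and IL-21. Except for CSF1R, these receptors signal through Janus kinases and STAT proteins. MK2 and MK3 are kinases downstream of p38 MAPK, and MK2 is known to regulate the stability and translation of cytokine mRNAs.

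All levels are given as log2 signal after quantile normalization between arrays, on which a difference of 1 equals a 2-fold change. Levels of different genes are measured by different probes and cannot be compared with each other. A change is called where the adjusted p of limma over all 26,014 genes is under 0.05. A signal counts as detected where the scanner software marked it as well above background. The lowest such signal on LPS arrays was 3.19 to 3.74 for wt, 4.38 to 4.59 for MK2-/- and 3.75 to 4.61 for MK2/3-/- BMDM. Counts of detected arrays are therefore not on the same footing in the 3 genotypes. Each genotype occupied its own slide and scan, and on every slide the medium arrays lay in one slide column and the LPS arrays in the other, so that genotype and slide, and treatment and slide column, cannot be told apart. *Mapkapk2*, the gene of MK2, differed from wt in medium by -3.31 in MK2-/- and by -3.50 in MK2/3-/- BMDM, and *Mapkapk3*, the gene of MK3, by -1.62 in MK2/3-/- BMDM (adjusted p of limma at most 5.74e-05 each) but not in MK2-/- BMDM (difference 0.24, adjusted p = 1.00). The location of these probes relative to the deleted parts is not given in the sources used here. Of 7 macrophage markers, the 6 that were measured (*Adgre1*, *Itgam*, *Mertk*, *Fcgr1*, *Lyz2* and *Cd14*) were detected on all 23 arrays. Of 7 T cell markers, *Cd3d* and *Cd8a* were detected on none of the arrays, *Cd3g* on 2, *Cd4* on 20, and *Cd3e*, *Cd28* and *Lck* on all of them. In these bulk samples a lower number of cells of a type and less RNA per cell cannot be told apart.

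The ligand genes lie on chromosomes 3 and 11 of the mouse assembly GRCm38.p6. *Csf1* (NM_007778) spans chr3:107741048-107760469 and *Il2* (NM_008366) chr3:37120713-37125954, whereas *Csf2* (NM_009969) spans chr11:54247270-54249899 and *Csf3* (NM_009971) chr11:98700183-98703631. *Il2ra* (NM_008367) spans chr2:11642792-11693194 and *Il2rg* (NM_013563) chrX:101264385-101268255. The sequences before the gene starts are shown for *Il2*, *Csf2*, *Csf1* and *Il2ra*, the genes with the largest changes upon LPS that had an entry in the RefSeq promoter table of this assembly, which held 7 of the 10 genes. Each comprises the 250 bases before the annotated start, at chr3:37125955-37126204, chr11:54249900-54250149, chr3:107760470-107760719 (minus strand each) and chr2:11642542-11642791 (plus strand). Capitals mark matches on either strand to the TATA box TATAAA, the AP-1 letters TGANTCA, the NFAT core GGAAAA or the NF-kB consensus.
Il2: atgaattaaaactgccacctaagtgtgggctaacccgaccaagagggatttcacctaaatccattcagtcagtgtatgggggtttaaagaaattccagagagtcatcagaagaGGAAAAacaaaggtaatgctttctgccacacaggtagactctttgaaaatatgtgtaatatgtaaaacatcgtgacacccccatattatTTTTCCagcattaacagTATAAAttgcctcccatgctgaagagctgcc
Csf2: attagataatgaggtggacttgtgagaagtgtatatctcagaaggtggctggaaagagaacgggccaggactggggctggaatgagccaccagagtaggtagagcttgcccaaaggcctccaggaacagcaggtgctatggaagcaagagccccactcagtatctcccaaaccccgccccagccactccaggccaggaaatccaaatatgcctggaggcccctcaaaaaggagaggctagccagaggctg
Csf1: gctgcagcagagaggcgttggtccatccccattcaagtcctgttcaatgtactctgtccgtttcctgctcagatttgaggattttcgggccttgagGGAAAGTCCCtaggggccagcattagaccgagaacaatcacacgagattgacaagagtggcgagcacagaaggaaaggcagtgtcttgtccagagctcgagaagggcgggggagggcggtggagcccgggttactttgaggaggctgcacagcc
Il2ra: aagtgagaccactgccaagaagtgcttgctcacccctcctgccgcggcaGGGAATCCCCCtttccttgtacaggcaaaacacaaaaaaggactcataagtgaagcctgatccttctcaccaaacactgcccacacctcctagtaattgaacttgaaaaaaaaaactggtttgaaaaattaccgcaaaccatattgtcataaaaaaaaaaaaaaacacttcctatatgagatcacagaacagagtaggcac

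Such matches are frequent, since among 32,851 RefSeq promoters cut in the same way 12.4% held the TATA box, 6.75% the AP-1 letters, 20.4% the NFAT core and 7.25% the NF-kB consensus. The *Il2* sequence held the TATA box at 31 to 26 bases before the start and 2 matches to the NFAT core. The *Csf1* sequence held 1 match to the NF-kB consensus, 154 to 145 bases before the start. The *Il2ra* sequence held 2 overlapping matches to it between 201 and 191 bases before the start. None of these letters were found in the window of *Csf2*. The matches describe the sequences and were not tested for binding.

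LPS raised the RNA of 3 of the 4 ligands in each genotype. In wt BMDM *Csf2*, *Csf3* and *Il2* rose, and in both knockouts *Csf1*, *Csf2* and *Il2* rose. Receptors included, wt BMDM had 3 of 10 genes called (17.1% of all genes), MK2-/- BMDM 6 of 10 (18.6%) and MK2/3-/- BMDM 5 of 10 (24.9%). The median change of the 10 genes was 1.39, 1.14 and 1.64 on the log2 scale, and that of all genes 0.01, -0.01 and -0.02. The medium and LPS groups did not overlap for 6 of 10 genes in wt BMDM (22.9% of all genes), for 7 in MK2-/- BMDM (32.8%) and for 5 in MK2/3-/- BMDM (26.4%). The 3 genotypes were each compared with their own medium arrays. With the culture as a block, 6 of 10 genes were called in each genotype, beside 5704, 6164 and 8036 of the 26,014 genes. *Csf1*, *Il2ra* and *Il2rg* were then also called in wt BMDM and *Csf3r* in MK2/3-/- BMDM. The unlike calls per genotype thus do not show unlike responses, and the LPS response itself was called different between genotypes for 0 of 10 genes.

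**Figure D1:**
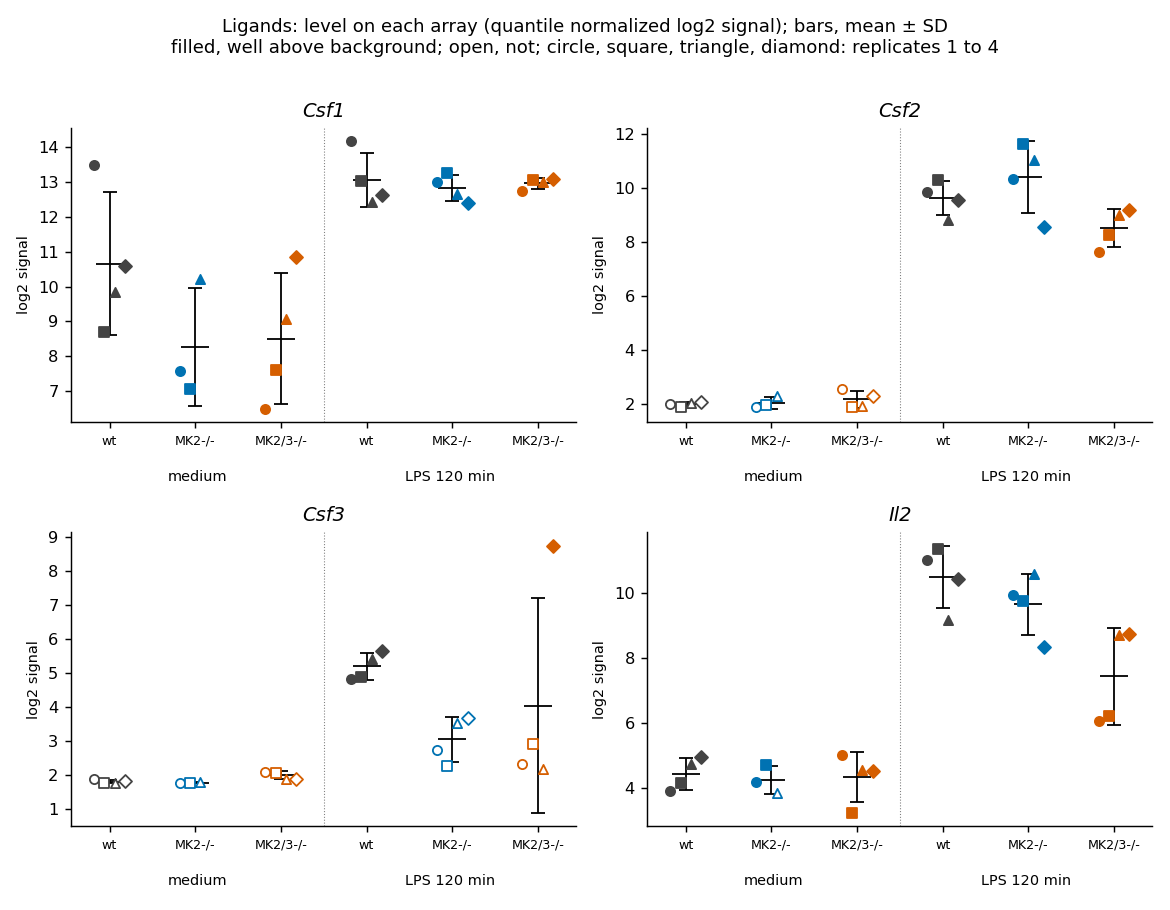
Log2 signal of the 4 ligand genes on each of the 23 arrays (vertical axes) in medium and after 120 min of LPS for wt (grey), MK2-/- (blue) and MK2/3-/- (orange) BMDM, with the mean and SD of each group. Filled symbols are signals well above background. *Csf2* moves from undetected to between 7.64 and 11.66, *Il2* after LPS is lowest in MK2/3-/- BMDM, and a single MK2/3-/- array carries a high *Csf3* signal of 8.75. The triangle of MK2-/- BMDM in medium belongs to the fourth culture.

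*Csf2*, the gene of GM-CSF, changed from an undetected to a high signal in all genotypes. In medium it was not well above background on any of the 11 arrays, with log2 signals between 1.87 and 2.55. After LPS the 4 wt arrays were at 9.88, 10.32, 8.82 and 9.56 (mean 9.64 ± 0.64 SD). The MK2-/- arrays were at 10.36, 11.66, 11.04 and 8.58 (10.41 ± 1.33, n = 4), and the MK2/3-/- arrays at 7.64, 8.27, 8.99 and 9.18 (8.52 ± 0.71, n = 4). Thus every LPS array lay far above every medium array, while the genotypes overlapped. As a lower bound, set against the lowest signal well above background on each medium array, *Csf2* was at least 70.6-fold higher with LPS for wt, 90.9-fold for MK2-/- and 27.6-fold for MK2/3-/- BMDM. The measured log2 differences, which include the undetected medium signals, were 7.65, 8.38 and 6.37 (adjusted p of limma = 6.69e-10, 7.94e-10 and 7.44e-09). These calls held under all 25, 24 and 25 alternative settings tried.

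*Il2* was low in medium and rose in every genotype. In medium it was detected on 10 of 11 arrays, with means of 4.43 ± 0.49 (SD, n = 4) for wt, 4.24 ± 0.43 (n = 3) for MK2-/- and 4.33 ± 0.77 (n = 4) for MK2/3-/- BMDM. After LPS the wt arrays were at 11.01, 11.36, 9.16 and 10.44, the MK2-/- arrays at 9.93, 9.76, 10.57 and 8.35 and the MK2/3-/- arrays at 6.07, 6.20, 8.72 and 8.74. All LPS arrays exceeded all medium arrays of their genotype, and the MK2/3-/- arrays fell into a lower pair, replicates 1 and 2, and a higher pair, replicates 3 and 4. The change with LPS was 6.07 ± 0.63 (SE) in wt BMDM, 5.41 ± 0.69 in MK2-/- BMDM and 3.10 ± 0.63 in MK2/3-/- BMDM, with adjusted p of limma of 8.83e-07, 9.18e-06 and 0.00101. Within cultures the change in MK2/3-/- BMDM was 1.06, 2.98, 4.17 and 4.21, whereas in wt BMDM it was 7.11, 7.20, 4.44 and 5.51. The arrays of the lower MK2/3-/- pair had stromal marker sums of 9.99 and 11.00 on the log2 scale, against 13.61 and 15.59 for the higher pair. Their sums of T cell markers were 13.22 and 13.57, against 12.47 and 11.21, and those of dendritic cell markers 13.71 and 13.93, against 12.80 and 12.78. Over all LPS arrays the summed T cell signal ranged from 2218 to 4178 in wt, 2396 to 3967 in MK2-/- and 2362 to 12173 in MK2/3-/- BMDM (linear signal). These are sums of linear signals, which 1 gene can carry. Over all arrays *Lck* ranged from 6.11 to 13.35 on the log2 scale, *Cd3e* from 9.66 to 11.15 and *Cd28* from 8.99 to 11.99. *Itgax* ranged from 10.78 to 13.71, and *Xcr1* was detected on 1 array. The sums therefore cannot be read as numbers of T or dendritic cells. The part of these markers in the *Il2* levels was not tested.

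*Csf3*, the gene of G-CSF, was not well above background on any medium array. After LPS it was detected on all 4 wt arrays, at 4.83, 4.90, 5.42 and 5.64, on none of the 4 MK2-/- arrays, at 2.74, 2.27, 3.53 and 3.68, and on 1 of the 4 MK2/3-/- arrays, at 2.34, 2.92, 2.18 and 8.75. The wt signals were close to each other, whereas replicate 4 of MK2/3-/- BMDM stood far above the other arrays of its group. The measured log2 difference of *Csf3* with LPS in wt BMDM, which includes undetected medium signals, was 3.38 (adjusted p of limma = 0.0135). As a lower bound, *Csf3* was at least 3.24-fold higher with LPS in wt BMDM. With another background correction (normexp), which compresses low signals, the change in wt BMDM was 0.74 with an adjusted p of 0.234. The changes of 1.28 in MK2-/- and 2.05 in MK2/3-/- BMDM did not pass (adjusted p = 0.451 and 0.117). Without replicate 4 of LPS-treated MK2/3-/- BMDM, the adjusted p was 0.00236 in MK2-/- and 0.223 in MK2/3-/- BMDM, but no array of these groups was then well above background, so that no fold is given.

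*Csf1* behaved differently from the other ligands, since it was detected on all 23 arrays and varied widely before LPS. In medium the wt arrays were at 13.50, 8.69, 9.84 and 10.60, the MK2-/- arrays at 7.56, 7.04 and 10.21 and the MK2/3-/- arrays at 6.49, 7.60, 9.06 and 10.86. After LPS the levels of all 12 arrays lay between 12.41 and 14.17, with means of 13.06 ± 0.78, 12.84 ± 0.37 and 12.97 ± 0.16 (SD, n = 4 each) in wt, MK2-/- and MK2/3-/- BMDM. The spread between arrays was thus smaller after LPS than before, and the lowest medium arrays had the largest differences to LPS. *Csf1* rose by 4.57 ± 0.99 (SE) in MK2-/- BMDM and by 4.47 ± 0.92 in MK2/3-/- BMDM (adjusted p of limma = 0.00230 and 0.00104). In wt BMDM the difference of 2.40 ± 0.92 missed the threshold (adjusted p = 0.0839). It passed with the culture as a block (adjusted p = 0.0372) and without replicate 1 of wt BMDM in medium, which raised it to 3.35 (adjusted p = 0.00810). Within wt cultures the differences were 0.67, 4.34, 2.59 and 2.02. The other 2 probes of *Csf1* gave 1.51 and 1.40 for wt, 2.91 and 3.07 for MK2-/- and 3.00 and 2.91 for MK2/3-/- BMDM, with calls in the same genotypes.

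The medium level of *Csf1* moved with the signal of stromal cell markers. The summed signal of the 6 markers of the list (*Col1a1*, *Col1a2*, *Col3a1*, *Pdgfra*, *Pdgfrb* and *Dcn*, which are expressed by fibroblasts and related cells) ranged over the medium arrays from 9.09 to 16.70 on the log2 scale. *Col1a1* and *Col1a2* were detected on all 23 arrays, *Pdgfrb* on 22, *Col3a1* on 20, *Dcn* on 16 and *Pdgfra* on 2. This too is a sum of linear signals, which 1 gene can carry. Over all arrays *Col1a2* ranged from 8.69 to 16.35 on the log2 scale and *Col1a1* from 6.32 to 14.36. The other markers of the list reached at most 10.44 (*Col3a1*). The order by the sum can therefore be largely that by *Col1a2*. With the 11 medium arrays in the order of rising stromal sum, *Csf1* was at 6.49, 7.04, 7.60, 7.56, 8.69, 9.06, 9.84, 10.21, 10.60, 10.86 and 13.50. The order by *Csf1* was therefore that by the stromal sum apart from 1 pair of neighbours, and the arrays of the 3 genotypes were mixed along it. After LPS no such order was seen, since the array with the lowest stromal sum, 9.99, had a *Csf1* level of 12.74 and the array with the highest, 16.43, a level of 14.17, with levels between 12.41 and 13.25 for the other 10. The summed signal of this list spanned 4516 to 106288 (linear signal) for wt, 1268 to 34744 for MK2-/- and 547 to 59238 for MK2/3-/- BMDM in medium, and 4055 to 88186, 1695 to 32450 and 1020 to 49314 after LPS. The part of these markers in the *Csf1* levels was not tested.

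**Figure D2:**
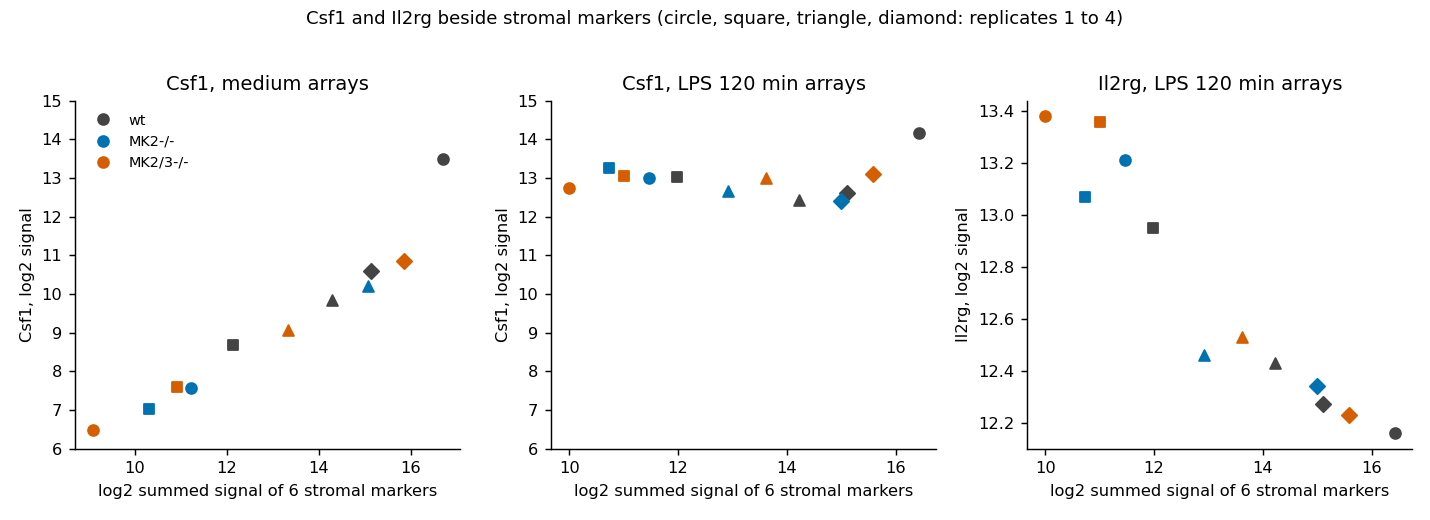
Log2 signal of *Csf1* on the 11 medium arrays and on the 12 LPS arrays, and of *Il2rg* on the 12 LPS arrays (vertical axes), against the log2 summed signal of 6 stromal markers (horizontal axes), with wt in grey, MK2-/- in blue and MK2/3-/- in orange. *Csf1* in medium climbs from 6.49 to 13.50 along the stromal sum, lies between 12.41 and 14.17 after LPS, and *Il2rg* after LPS falls from 13.38 to 12.16 along it.

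Among the receptors, *Il2ra* and *Il2rg* rose with LPS in MK2-/- and MK2/3-/- BMDM and *Csf2rb* fell in MK2-/- BMDM. In wt BMDM 0 of 6 receptors were called, but *Il2ra* and *Il2rg* passed with the culture as a block. *Il2ra*, the alpha chain that gives the IL-2 receptor its high affinity, was not well above background on any medium array. After LPS it was at 4.36, 6.44, 3.15 and 2.89 in wt BMDM with 2 of 4 arrays detected, at 6.31, 6.82, 4.83 and 4.62 in MK2-/- BMDM with 3 of 4, and at 6.35, 7.64, 5.46 and 4.24 in MK2/3-/- BMDM with 3 of 4. In each genotype all LPS arrays were above all medium arrays, and replicate 2 had the highest signal. The measured differences of *Il2ra* with LPS, which include undetected signals, were 3.35 in MK2-/- and 3.73 in MK2/3-/- BMDM (adjusted p of limma = 0.00355 and 0.000523). As lower bounds, *Il2ra* was at least 3.34-fold higher with LPS in MK2-/- BMDM and at least 4.57-fold in MK2/3-/- BMDM. For wt BMDM the bound was 1.63-fold. The measured difference there was 1.92, with an adjusted p of limma of 0.0734, or 0.0313 with the culture as a block. With normexp the change in MK2-/- BMDM was 0.79 (adjusted p = 0.0520).

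*Il2rg*, the common gamma chain, was detected on all arrays and differed by a factor of about 2 between treatments. In wt BMDM it was at 11.55, 12.05, 11.66 and 11.11 in medium and at 12.16, 12.95, 12.43 and 12.27 after LPS. In MK2-/- BMDM it was at 12.12, 11.64 and 11.53 in medium and at 13.21, 13.07, 12.46 and 12.34 after LPS. In MK2/3-/- BMDM it was at 12.26, 11.98, 11.22 and 11.17 in medium and at 13.38, 13.36, 12.53 and 12.23 after LPS. The medium and LPS arrays were thus separate in wt and MK2-/- BMDM and overlapped by 1 array in MK2/3-/- BMDM, in which the within-culture differences were 1.12, 1.38, 1.32 and 1.06. *Il2rg* rose by 1.01 ± 0.34 (SE) in MK2-/- BMDM and by 1.22 ± 0.31 in MK2/3-/- BMDM (adjusted p of limma = 0.0420 and 0.00618). The difference of 0.86 ± 0.31 in wt BMDM had an adjusted p of 0.0679, and of 0.0172 with the culture as a block. In MK2-/- BMDM the call was lost without replicate 1 or 2 after LPS and without replicate 2 or 3 in medium (differences 0.86 to 0.95, adjusted p 0.112 to 0.145).

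After LPS *Il2ra* and *Il2rg* were lower on arrays with more stromal marker signal, in the opposite direction to *Csf1* in medium. With the 12 LPS arrays in the order of rising stromal sum, *Il2rg* was at 13.38, 13.07, 13.36, 13.21, 12.95, 12.46, 12.53, 12.43, 12.34, 12.27, 12.23 and 12.16. In the same order *Il2ra* was at 6.35, 6.82, 7.64, 6.31, 6.44, 4.83, 5.46, 3.15, 4.62, 2.89, 4.24 and 4.36. *Il2rg* also tended to be lower with a higher stromal sum in medium. Over the medium arrays in rising order it was at 12.26, 11.64, 11.98, 12.12, 12.05, 11.22, 11.66, 11.53, 11.11, 11.17 and 11.55. The part of the stromal markers in these levels was not tested. Of the 6 dendritic cell markers *Itgax* and *Flt3* were detected on all arrays. Among the LPS arrays the summed signal of all 6 dendritic cell markers was lowest, at 11.79, on the wt array with an *Il2ra* level of 2.89. The sum of the 6 was highest, at 13.93, on the MK2/3-/- array with a level of 7.64. *Itgax*, which reached 13.71, can carry most of this sum, and the part of the sum was not tested either.

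*Csf1r*, the receptor of M-CSF and a defining gene of the macrophage lineage, was detected on all arrays. The means of the probe used in the fit were 18.57 ± 0.06, 18.59 ± 0.05 and 18.60 ± 0.07 in wt, MK2-/- and MK2/3-/- BMDM in medium and 18.39 ± 0.06, 18.48 ± 0.20 and 18.46 ± 0.14 after LPS (SD, n = 4 or 3). The difference between treatments was -0.18 for wt (95% interval -0.40 to 0.04), -0.11 for MK2-/- (-0.35 to 0.13) and -0.14 for MK2/3-/- BMDM (-0.36 to 0.08). The wt arrays did not overlap between treatments, but limma called no probe of *Csf1r* (adjusted p 0.301 to 0.591 for this probe). By the methods' t-test this probe was called in wt BMDM. It had the highest level of the probes read here, and quantile normalization sets values by rank. MK2/3-/- replicates 1 and 2 in medium and replicate 4 after LPS thus shared the value 18.5964. Small SDs and differences of this probe can come from the scale and need not mean stable RNA. The other 2 probes, with levels between 12.44 and 16.02, gave differences of -0.62 and -0.58 for wt, -0.47 and -0.25 for MK2-/- and -0.48 and -0.39 for MK2/3-/- BMDM.

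*Csf2ra*, the alpha chain of the GM-CSF receptor, had group means between 16.27 and 16.40 and differences with LPS of -0.01, -0.01 and -0.07, with the 95% intervals lying between -0.37 and 0.32. *Csf2rb*, the beta chain shared with the receptors of IL-3 and IL-5, was at 15.78, 15.56 and 15.30 in MK2-/- BMDM in medium and at 15.15, 14.91, 14.79 and 15.01 after LPS. It fell by 0.58 on the log2 scale in this genotype (adjusted p of limma = 0.0432), while the differences of -0.36 in wt and -0.27 in MK2/3-/- BMDM had adjusted p of 0.217 and 0.313. The call in MK2-/- BMDM rested on the scaling of the arrays, since with the 75th percentile in place of quantiles, which moved the median of all genes by 0.15 for wt, 0.20 for MK2-/- and 0.06 for MK2/3-/- BMDM, the difference was -0.15 (adjusted p = 0.684). The second probe of *Csf2rb* gave -0.35 (adjusted p = 0.420), and the call was also lost without replicate 2, 3 or 4 of the LPS arrays or replicate 1 or 2 of the medium arrays (-0.46 to -0.59). On the 75th percentile scale the differences of *Csf1r* with LPS were between 0.01 and 0.23 and those of *Csf2ra* between 0.31 and 0.37, none of them called. *Csf3r*, the G-CSF receptor, had differences of -0.56 for wt, -0.43 for MK2-/- and -0.64 for MK2/3-/- BMDM (adjusted p = 0.205, 0.384 and 0.104), and that in MK2/3-/- BMDM passed with the culture as a block (adjusted p = 0.0418). It is a gene of neutrophils as well as of macrophages. The summed signal of the 7 measured neutrophil markers, 5 of which were detected on all arrays, ranged from 3000 to 18742 over the medium arrays and from 3199 to 17154 over the LPS arrays (linear signal), and its part in the *Csf3r* level was not tested.

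**Figure D3:**
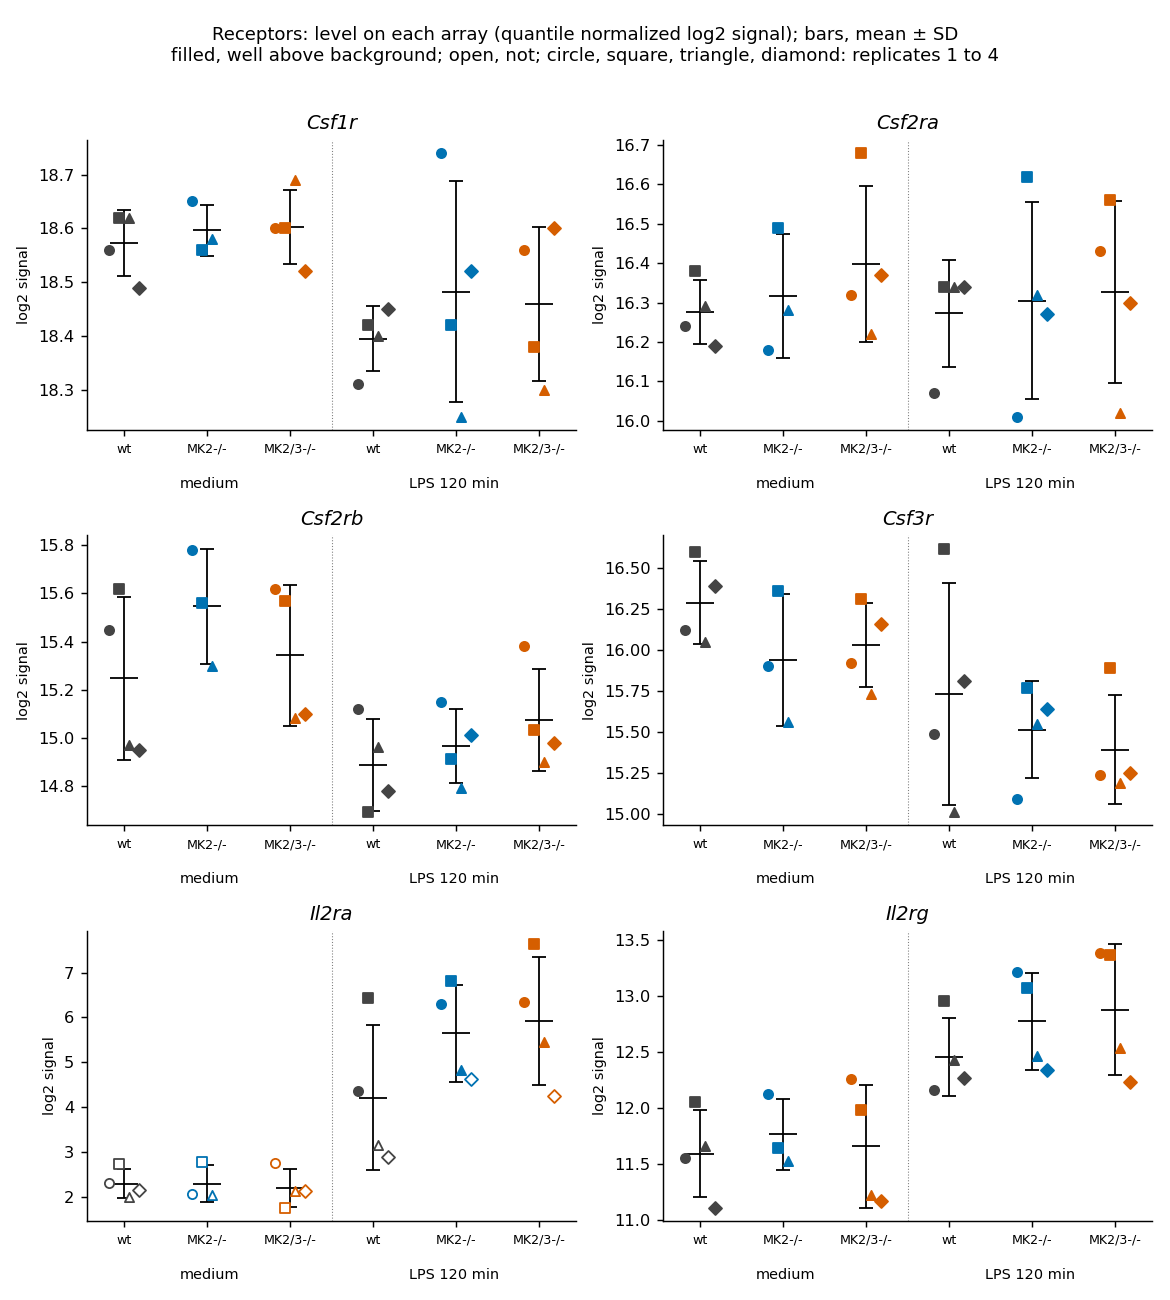
Log2 signal of the 6 receptor genes on each of the 23 arrays (vertical axes, each with its own range) in medium and after 120 min of LPS for wt (grey), MK2-/- (blue) and MK2/3-/- (orange) BMDM, with the mean and SD of each group. Filled symbols are signals well above background. *Il2ra* is undetected in medium and *Il2rg* moves up by about 1. The *Csf1r* probe shown, which has the highest level of the probes read, lies between 18.25 and 18.74. The triangle of MK2-/- BMDM in medium belongs to the fourth culture.

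**Figure D4:**
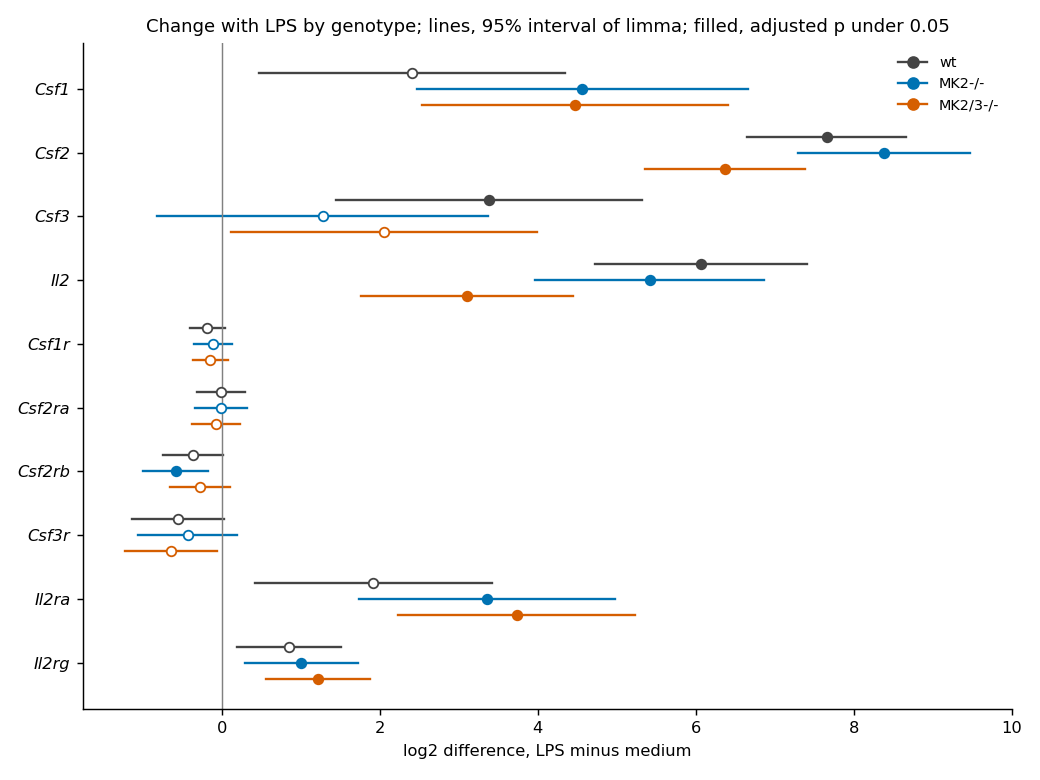
Change of the 10 genes upon LPS (horizontal axis, log2 difference between LPS and medium, with the 95% interval of limma) in wt (grey), MK2-/- (blue) and MK2/3-/- (orange) BMDM. Filled symbols have an adjusted p under 0.05. The ligands and *Il2ra* lie to the right, from 1.28 for *Csf3* in MK2-/- BMDM to 8.38 for *Csf2* in MK2-/- BMDM, and the receptors of the colony-stimulating factors lie between -0.64 and -0.01.

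The comparison of the genotypes after LPS asks whether the ligands and receptors depend on MK2 alone or on MK2 and MK3. Of the 10 genes only *Il2* was called, and only between MK2/3-/- and wt BMDM. Against wt, 0 of 10 were called in MK2-/- BMDM (0.0308% of all genes) and 1 of 10 in MK2/3-/- BMDM (1.64%), and the knockouts differed from each other in 0 of 10 (0.161%). At an unadjusted p under 0.05 the limma fit gave 1, 3 and 2 of 10, where 7.5%, 13.6% and 7.91% of all genes passed. The groups did not overlap for 1 of 10 genes in the first comparison (*Csf3*, 3.72% of all genes), for 1 in the second (*Il2*, 5.81%) and for none in the third (5.14%).

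The *Il2* level after LPS was 8.33-fold lower in MK2/3-/- than in wt BMDM. The means were 7.44 ± 1.5 and 10.49 ± 0.96 (SD, n = 4 each), the difference -3.06 ± 0.63 (SE) and the adjusted p of limma 0.0192. The highest MK2/3-/- array was below the lowest wt array, which gave the smallest p that an exact permutation test of 4 against 4 arrays allows, 0.0286 (two-sided). The call was lost without replicate 1 or 4 of the wt arrays or replicate 1 or 2 of the MK2/3-/- arrays (adjusted p 0.0567 to 0.0771) and where only these groups entered the fit (0.311), with differences of -2.60 to -3.08. MK2-/- BMDM, at 9.65 ± 0.93, differed from wt by -0.84 (adjusted p = 0.784, 95% interval -2.18 to 0.50), and MK2/3-/- from MK2-/- BMDM by -2.22 (adjusted p = 0.254, exact p = 0.0857, 95% interval -3.56 to -0.88). The *Il2* levels in rising order were therefore MK2/3-/-, MK2-/- and wt, and no pair of neighbours in this order passed the adjusted threshold. As to the response to LPS, MK2/3-/- BMDM differed from wt by -2.96, with an adjusted p of 0.643. Without the first wt culture, which had the highest stromal sum, MK2/3-/- BMDM differed from the remaining wt cultures by -2.89 (adjusted p = 0.0900).

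*Csf2* after LPS followed the order MK2/3-/-, wt and MK2-/-. MK2/3-/- BMDM differed from MK2-/- BMDM by -1.89 ± 0.48 (SE) (adjusted p of limma = 0.156, exact p = 0.0857) and from wt BMDM by -1.12 (adjusted p = 0.299). MK2-/- BMDM lay 0.77 from wt (adjusted p = 0.727, 95% interval -0.24 to 1.78). A single array carried weight here, since without replicate 4 of MK2-/- BMDM, at 8.58 the lowest of its group, *Csf2* was called between MK2/3-/- and MK2-/- BMDM (-2.50, adjusted p = 0.00536).

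*Csf3* after LPS was detected in wt but not in MK2-/- BMDM, where it was at least 1.69-fold lower. The lowest signal well above background was higher on MK2-/- than on wt LPS arrays (4.38 to 4.59 against 3.19 to 3.74). The undetected MK2-/- signals of 3.53 and 3.68 lay above the 3.19 of wt replicate 3. The wt signals, from 4.83 upward, lay above both ranges. No MK2-/- array reached the lowest wt array (difference -2.14, exact permutation p = 0.0286, two-sided), but limma, which shares the spread of all groups, gave an adjusted p of 0.628. Replicate 4 of LPS-treated MK2/3-/- BMDM entered that spread. With it, MK2/3-/- BMDM differed from wt by -1.15 (adjusted p = 0.646). Without this array the adjusted p was 0.000896 between MK2-/- and wt BMDM and 6.71e-05 between MK2/3-/- and wt BMDM, and the difference of the response to LPS between the latter had an adjusted p of 0.00532. The 3 other MK2/3-/- arrays were not well above background, so that *Csf3* was at least 1.71-fold higher in wt BMDM than on these arrays. The array left out was singled out for its own *Csf3* level of 8.75. The values without it, this bound included, describe the remaining arrays and are not an independent test of the genotypes. The same MK2/3-/- array had the highest stromal sum of its group, 15.59 against 9.99, 11.00 and 13.61, whereas the wt arrays with sums of 16.43 and 15.11 had *Csf3* levels of 4.83 and 5.64. The part of the stromal markers in this signal was not tested.

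**Figure D5:**
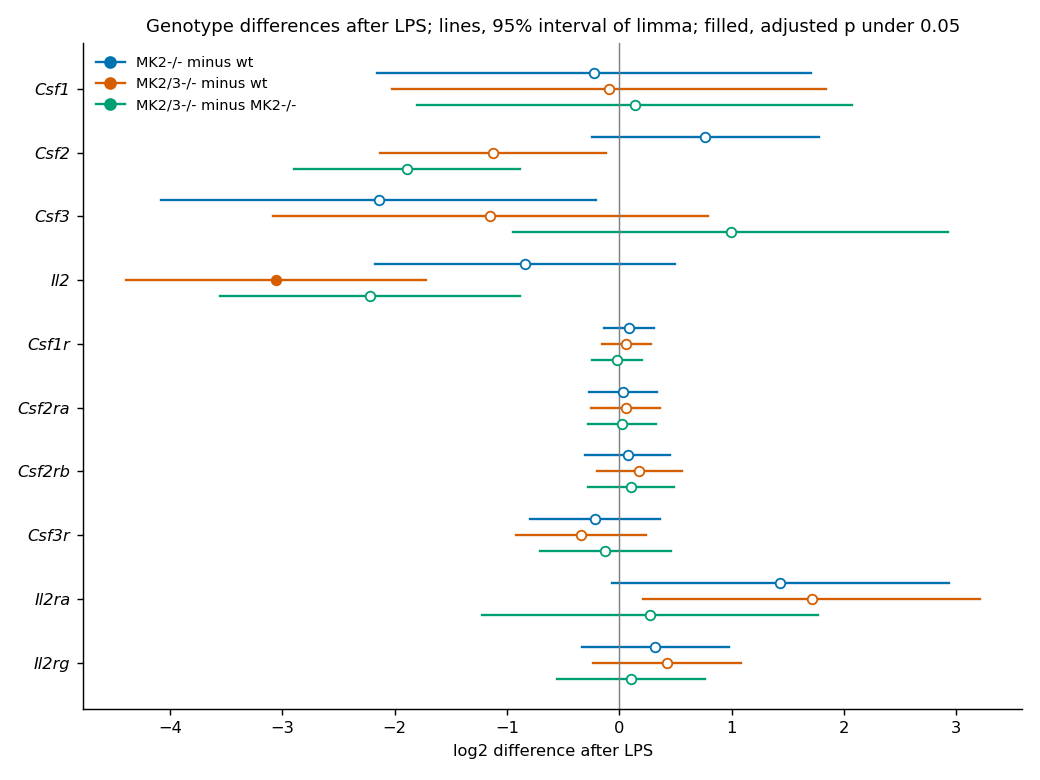
Differences between genotypes after 120 min of LPS for the 10 genes (horizontal axis, log2 difference with the 95% interval of limma), with MK2-/- minus wt in blue, MK2/3-/- minus wt in orange and MK2/3-/- minus MK2-/- in green. Filled symbols have an adjusted p under 0.05. The single filled symbol is *Il2* at -3.06, and the intervals of *Csf1r* and *Csf2ra* lie between -0.28 and 0.36.

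For *Csf1* and the receptors no difference between genotypes was called after LPS. For *Csf1* the differences from wt were -0.22 in MK2-/- and -0.09 in MK2/3-/- BMDM, with 95% intervals of -2.16 to 1.71 and -2.02 to 1.84, which are wide because the spread of the medium arrays enters the fit. *Il2ra* differed from wt by 1.44 in MK2-/- and by 1.71 in MK2/3-/- BMDM (adjusted p of limma = 0.670 and 0.281, 95% intervals -0.06 to 2.93 and 0.22 to 3.21), and *Il2rg* by 0.32 and 0.42 (0.842 and 0.604). The other 4 receptors, by the probes used in the fit, had differences between -0.34 and 0.18.

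In medium 0 of the 10 genes were called between genotypes, where 0.00769% of all genes separated MK2-/- from wt BMDM, 0.0769% MK2/3-/- from wt BMDM and 0.0461% the knockouts from each other. At an unadjusted p under 0.05, limma gave 1, 1 and 0 of 10, which was *Csf1* in both cases, where 3.42%, 4.63% and 3.57% of all genes passed. *Csf1* in medium differed from wt by -2.39 in MK2-/- and by -2.15 in MK2/3-/- BMDM, with adjusted p of 1.00 each and with overlapping arrays. The groups were separate for 0 of 10 genes between MK2-/- and wt BMDM (7.02% of all genes), and MK2/3-/- BMDM were separate in *Csf3* alone from wt (4.07%) and from MK2-/- BMDM (6.44%), where no *Csf3* signal was well above background. The difference of the LPS response between genotypes, tested as an interaction, was called for 0 of 10 genes in each of the 3 comparisons (0.00384%, 0.0115% and 0% of all genes). At an unadjusted p under 0.05 limma gave 0, 1 and 2 of 10 (1.91%, 4.54% and 2.88% of all genes), namely *Il2* between MK2/3-/- and wt BMDM (-2.96) and *Csf2* (-2.01) and *Il2* (-2.31) between MK2/3-/- and MK2-/- BMDM.

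Of 19 further ligands and receptor chains of the same families, 6 were called upon LPS in wt BMDM (4 higher, 2 lower), 7 in MK2-/- (4 and 3) and 6 in MK2/3-/- BMDM (4 and 2), with median changes of 0.04, 0.18 and 0.22. Of all genes 17.1%, 18.6% and 24.9% were called, with medians of 0.01, -0.01 and -0.02. In all genotypes the 3 lowest adjusted p values belonged to *Tslp*, an epithelial cytokine whose receptor is related to the common gamma chain, *Il15* and its receptor alpha chain *Il15ra*. *Tslp* rose by 4.94, 6.27 and 5.73 in wt, MK2-/- and MK2/3-/- BMDM (adjusted p of limma = 1.22e-07, 1.34e-08 and 1.08e-08). *Il15*, which signals through the common gamma chain, rose by 3.11, 2.95 and 3.73, and *Il15ra* by 3.24, 3.50 and 3.14 (adjusted p at most 0.000693). Those that fell, named after their values were seen, were *Csf2rb2* and *Il21r* in wt, *Csf2rb2*, *Il7r* and *Il21r* in MK2-/- and *Il7r* and *Il21r* in MK2/3-/- BMDM. *Il34*, the second ligand of CSF1R, had differences of 1.28, 1.56 and 1.02 that were not called (adjusted p = 0.222, 0.146 and 0.293). None of the 19 genes was called between genotypes in medium, after LPS or in the interaction.

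Of 22 genes that carry or answer the signals of these receptors, 9 rose upon LPS in wt BMDM, 9 rose and 1 fell in MK2-/- BMDM, and 12 rose in MK2/3-/- BMDM, with median changes of 0.57, 0.54 and 0.77, beside the same 17.1%, 18.6% and 24.9% of all genes called in either direction. *Socs3*, a feedback inhibitor of the G-CSF receptor among others, rose by 7.85, 7.28 and 7.72 in wt, MK2-/- and MK2/3-/- BMDM, and *Pim1*, a kinase induced by STAT5, by 5.21, 5.09 and 4.81 (adjusted p of limma at most 3.55e-11). *Jak2*, the kinase bound to the common beta chain, rose by 3.55 in wt and by 3.60 in MK2-/- BMDM, and in MK2/3-/- BMDM *Socs1*, another feedback inhibitor, rose by 8.38. The gene that fell in MK2-/- BMDM was the phosphatase gene *Ptpn6*, named after its value was seen (-0.52, adjusted p = 0.0470). None of the 22 genes was called between genotypes in medium, after LPS or in the interaction.

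For each ligand the genes with the most similar pattern over the 12 LPS arrays were sought among the 14,825 genes detected on every array of at least 1 LPS group. The arrays share slides and cultures, and the correlations are descriptions. Nearest to *Csf1* were *Mfsd2a*, *Wnt10b* and *Adam12* (Pearson r = 0.90, 0.87 and 0.86). *Csf2* was followed most closely by *Coil*, *Pdhx* and *Zfp445* (r = 0.94, 0.94 and 0.87), *Csf3* by *Tchp*, *Acvr2b* and *Spg7* (r = 0.86, 0.86 and 0.85). For *Il2* they were *Vps18*, the unnamed transcript CV783874 and *Tiprl* (r = 0.91, 0.90 and 0.90). Within single genotypes the lowest r of these genes ranged from -0.29 for *Zfp445* to 0.70 for *Pdhx*. *Csf3* was well above background on only some of these arrays, and its correlations include MK2/3-/- replicate 4, at 8.75. The weight of that array in them was not tested.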

How the data were processed

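Total RNA of BMDM was hybridized with a single dye to Agilent mouse arrays, 1 per sample. The linear spot intensity deposited by the authors (Agilent Feature Extraction 11.0.1.1, per the file headers) is background-subtracted and corrected for gradients within the array, for which 2 arrays (MK2-/- LPS replicate 1 and MK2/3-/- medium replicate 2) held no fit. The log2 values deposited by the authors, quantile normalized and centred on each probe's median, served as an alternative, and values recomputed from the intensities in this way correlated with them (Pearson r = 0.999942 over probes and arrays). The depth of an array is not a count, so the number of arrays limits the precision. Between 47.5% and 69.1% of probes per array were well above background.

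Values of non-uniform or outlier spots were set to missing, and control spots were dropped. Replicate spots were averaged on the log2 scale, and arrays were quantile normalized (R 4.3.3, limma 3.58.1, data.table version 1.17.8; sequences and figures with Python 3.11.15 and matplotlib 3.10.9). Accessions were named through RefSeq (GRCm38.p6), and 20,887 of 26,014 genes had a name, the others keeping their accession. A gene with several probes entered with the probe most induced by LPS in wt BMDM. All 23 arrays entered a limma model with 6 groups, with two-sided tests and Benjamini-Hochberg adjustment over all genes at 0.05, and exact permutation tests were added for single genes. The members, the gene lists and the tests were chosen with earlier results of these data known. The named genes are the 10 members, *Mapkapk2* and *Mapkapk3*, the 3 genes with the lowest adjusted p per list and comparison with any call, and the 3 genes most like each ligand over the LPS arrays. Where a group had no array with a signal well above background, folds are lower bounds against the lowest such signal on each array.

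Per the labels, a medium and an LPS array of the same genotype can come from the same culture. Deviations from the group means correlated within the 11 such pairs (r 0.0657 to 0.566 over 25,902 complete genes, median 0.256, and 10 pairs above 0.1) but had a median r of -0.08 in 33 pairs of different cultures, so a fit blocked by culture was also made. Other alternatives were 75th percentile scaling, normexp background correction (offset 50), the deposited log2 values, the mean over probes, a filter on dim probes, kept flagged spots, a floor of 5, only the groups compared, the methods' t-test, a trended prior and each array left out. On simulated arrays for LPS against medium in wt BMDM (25,902 genes, 200 changed, 10 sets) limma recovered 35.4%, 73.9% and 88.9% of changes of 1, 2 and 3 on the log2 scale, with 5.99% false calls. The simulated noise was independent between arrays, and in the real comparison 17.1% of genes were called. The recovery therefore need not hold for the real arrays.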

Additional observations from a re-analysis of the deposited data

Results flagged for a closer look

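In 50 groups of 4 arrays, 5 for each of the 10 genes, the highest or lowest array was set against the others of its group, and 3 stood apart by Dixon's criterion. Chance marks about 1 in 20 groups. *Csf3* in LPS-treated MK2/3-/- BMDM was at 8.75 in replicate 4, with the next array at 2.92. *Csf2ra* in LPS-treated wt BMDM was at 16.07 in replicate 1, with the next at 16.34. *Csf3r* in LPS-treated MK2/3-/- BMDM was at 15.89 in replicate 2, with the next at 15.25. No gene of the 10 responded to LPS in opposite directions on all arrays of 2 genotypes.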

How the results depend on the processing

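The number of arrays, 3 or 4 per group, limits these results. Of 30 tests each, the calls for LPS against medium (14) came to 11 to 18 over all alternatives, and those between genotypes in medium stayed at 0. With the culture as a replicate block, the calls for LPS against medium were 18, those after LPS 1 and the interactions 0. Nothing in the labels ties the replicate numbers of different genotypes together, but deviations from the group means correlated more between genotypes with the same number (median r 0.316, 18 of 22 pairs above 0.1) than with other numbers (-0.12, 14 of 66), a hint from the data. As a replicate block the numbers gave 17, 1 and 0 calls, and moved the calls over all genes between MK2/3-/- and wt BMDM after LPS from 427 to 753, between MK2-/- and wt BMDM from 8 to 19 and between the knockouts from 42 to 99. The single call between genotypes after LPS (*Il2*) became 0 with only the groups compared in the fit, 0 by the methods' t-test and 0 without the first wt culture, an alternative chosen after seeing the data, and leaving out single arrays gave 0 to 3. The interaction calls (0) ranged from 0 to 1 when single arrays were left out, the 1 being *Csf3* without MK2/3-/- LPS replicate 4. The difference of *Csf3* between MK2/3-/- and wt BMDM after LPS turned to 0.15 with normexp (adjusted p = 0.928), and that between MK2/3-/- and MK2-/- BMDM to -0.57 without MK2/3-/- LPS replicate 4 (adjusted p = 0.511), the range with single arrays left out being -0.57 to 1.61. That of *Il2ra* between MK2/3-/- and MK2-/- BMDM turned to -0.06 without MK2-/- LPS replicate 4 and to -0.30 without MK2/3-/- LPS replicate 2 (adjusted p 1.00 and 0.982), within a range of -0.30 to 0.84. None of these 3 differences was called, and without that array no *Csf3* signal of either knockout was well above background. The cause of these changes was not tested. The filter on dim probes left 9 of the 10 genes, without *Il2ra*. The methods' t-test added *Csf1r* in wt BMDM, and by it *Il2* in MK2/3-/- BMDM upon LPS had an adjusted p of 0.0546 and *Il2rg* of 0.0927 and 0.0918 in MK2-/- and MK2/3-/- BMDM.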
